A study of Mus musculus with 16 samples.

Results

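The 9 genes described here encode cell surface receptors that guide blood leukocytes: the chemokine receptors Cxcr3, Cxcr4, Cxcr5, Cxcr6, Ccr6 and Ccr1, and the sphingosine 1-phosphate (S1P) receptors S1pr1, S1pr4 and S1pr5. They were taken by gene symbol from a table of 51179 mouse genes, and all 9 were found once and passed the filter on low values. The levels came from sequenced total RNA of PBMCs, the mononuclear cells of peripheral blood, of C57BL/6N mice in a model of heart failure with preserved ejection fraction. Of the 16 libraries, 6 came from mice given a high-fat diet with L-NAME, an inhibitor of nitric oxide synthases, for 15 weeks and in addition NO2-OA (nitro-oleic acid, a nitrated fatty acid) over the last 4 weeks. Another 5 libraries came from mice on the high-fat diet with L-NAME alone for 15 weeks, and 5 from mice on regular chow. These groups are called HFD+L-NAME+NO2-OA, HFD+L-NAME and chow. The labels give no age or sex, and nothing in them says that each library is a separate mouse, so p-values measure the spread between these libraries.

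Chemokine receptors are G protein-coupled receptors that make leukocytes move toward a source of chemokine, a small secreted protein. In textbook accounts Cxcr4, the receptor for Cxcl12, keeps cells in the bone marrow, and Cxcr5, the receptor for Cxcl13, brings B cells and follicular helper T cells into B cell follicles. Cxcr3 is the receptor of effector T cells and natural killer (NK) cells for interferon-induced chemokines, Cxcr6 binds Cxcl16, Ccr6 binds Ccl20, and Ccr1 is best known from monocytes and neutrophils. S1pr1 senses S1P, a lipid abundant in blood, and lets lymphocytes leave lymph nodes, S1pr5 serves NK cells in a similar way, and S1pr4 is found on leukocytes broadly.

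Values are TPM, in which reads are divided by gene length and scaled so that each library sums to 1000000, so levels of different genes can be set side by side. Whole reads recovered from the TPM steps numbered 4.94 M to 25.5 M a library. In 3 libraries (HFD+L-NAME+NO2-OA replicate 2, HFD+L-NAME replicate 5 and chow replicate 3) protein-coding genes held less than 25% of all TPM. The library numbers in the labels fall into 2 runs: 11 libraries in run 1 (5 HFD+L-NAME+NO2-OA, 3 HFD+L-NAME, 3 chow) and 5 in run 2 (1, 2 and 2 in the same order). The 2 HFD+L-NAME and the 2 chow libraries of run 2 carried at least 10 TPM of Alox15, a gene of peritoneal macrophages, which no other library did.

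The promoters of 3 of these receptors are shown because Ccr6 and S1pr4 were among the pairs whose levels moved together most closely over the libraries, while the levels of Ccr1 followed neither closely. Each is the 250 bases before the transcript start in RefSeq on GRCm38.p6, printed 5′ to 3′ on the strand of the gene, with matches to the searched motifs in capitals. RefSeq promoters were matched for 7 of the 9 receptors, with 2 starts for Ccr6, which makes 8 promoters. Ccr6 (first start) lies at chr17:8235793-8236042 on the plus strand, S1pr4 at chr10:81500138-81500387 on the minus strand and Ccr1 at chr9:123968693-123968942 on the minus strand. The next 30 bases after the window were found in 1 transcript for Ccr6 and for Ccr1. They were found in 0 transcripts for S1pr4, and likewise for Cxcr4, so these 2 starts are less certain.
Ccr6: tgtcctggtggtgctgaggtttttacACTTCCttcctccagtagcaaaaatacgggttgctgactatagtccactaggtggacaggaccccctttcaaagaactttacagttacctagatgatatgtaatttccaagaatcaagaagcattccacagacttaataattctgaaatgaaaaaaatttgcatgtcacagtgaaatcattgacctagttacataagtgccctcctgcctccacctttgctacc
S1pr4: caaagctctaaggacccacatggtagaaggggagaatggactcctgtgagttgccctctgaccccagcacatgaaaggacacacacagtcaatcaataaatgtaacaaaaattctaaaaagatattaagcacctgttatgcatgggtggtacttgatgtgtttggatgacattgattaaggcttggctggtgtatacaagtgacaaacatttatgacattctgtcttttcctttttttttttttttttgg
Ccr1: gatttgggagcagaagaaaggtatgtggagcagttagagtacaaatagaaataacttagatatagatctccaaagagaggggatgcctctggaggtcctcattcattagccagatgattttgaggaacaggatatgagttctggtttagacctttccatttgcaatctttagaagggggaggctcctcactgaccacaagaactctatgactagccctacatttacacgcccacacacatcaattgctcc
The letters searched on both strands were GGGGCGGGG (a GC box), AACCACA (a RUNX motif) and GGAAGT (an ETS motif), which do not overlap one another here. Ccr6 holds 1 ETS match, read as ACTTCC on this strand, and the S1pr4 and Ccr1 windows hold no match to any of them. Over the 8 receptor promoters the GC box occurred in 2 (Cxcr4 and S1pr5), the RUNX motif in 0 and the ETS motif in 3 (Ccr6, Cxcr3 and S1pr5). Over all 32851 promoters of the same length the shares were 10.4% for the GC box, 4.40% for the RUNX motif and 19.7% for the ETS motif. G and C made up 41.2% of the Ccr6 window, 38.8% of the S1pr4 window and 43.6% of the Ccr1 window, against a median of 52.4% over all promoters, and 61.2% and 69.2% at Cxcr4 and S1pr5.

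The levels of the 9 receptors spanned more than 2 orders of magnitude. Cxcr4 was the most abundant at a mean of 566 ± 260 TPM (SD, n = 16 libraries), followed by S1pr1 at 98.2 ± 39.5 TPM, Cxcr5 at 48.8 ± 19.1 TPM and S1pr4 at 47.4 ± 22.9 TPM. Ccr1 averaged 13.7 ± 9.35 TPM and Ccr6 12.2 ± 5.50 TPM. S1pr5 averaged 5.87 ± 2.95 TPM, Cxcr3 4.56 ± 2.75 TPM and Cxcr6 2.22 ± 1.53 TPM. Cxcr4 stood clear of the rest: its lowest library, at 187 TPM, lay above the highest S1pr1 library, at 164 TPM. Every other neighbouring pair overlapped in range. Within libraries, S1pr1 was above Cxcr5, and Ccr6 above S1pr5, in 16 of 16. Cxcr5 exceeded S1pr4 in 9 of 16 libraries and Ccr1 exceeded Ccr6 in 8 of 16, so the order of these 2 pairs was not set beyond their spread. S1pr5 exceeded Cxcr3 in 12 of 16 libraries, and Cxcr3 exceeded Cxcr6 in 15 of 16.

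**Figure D1:**
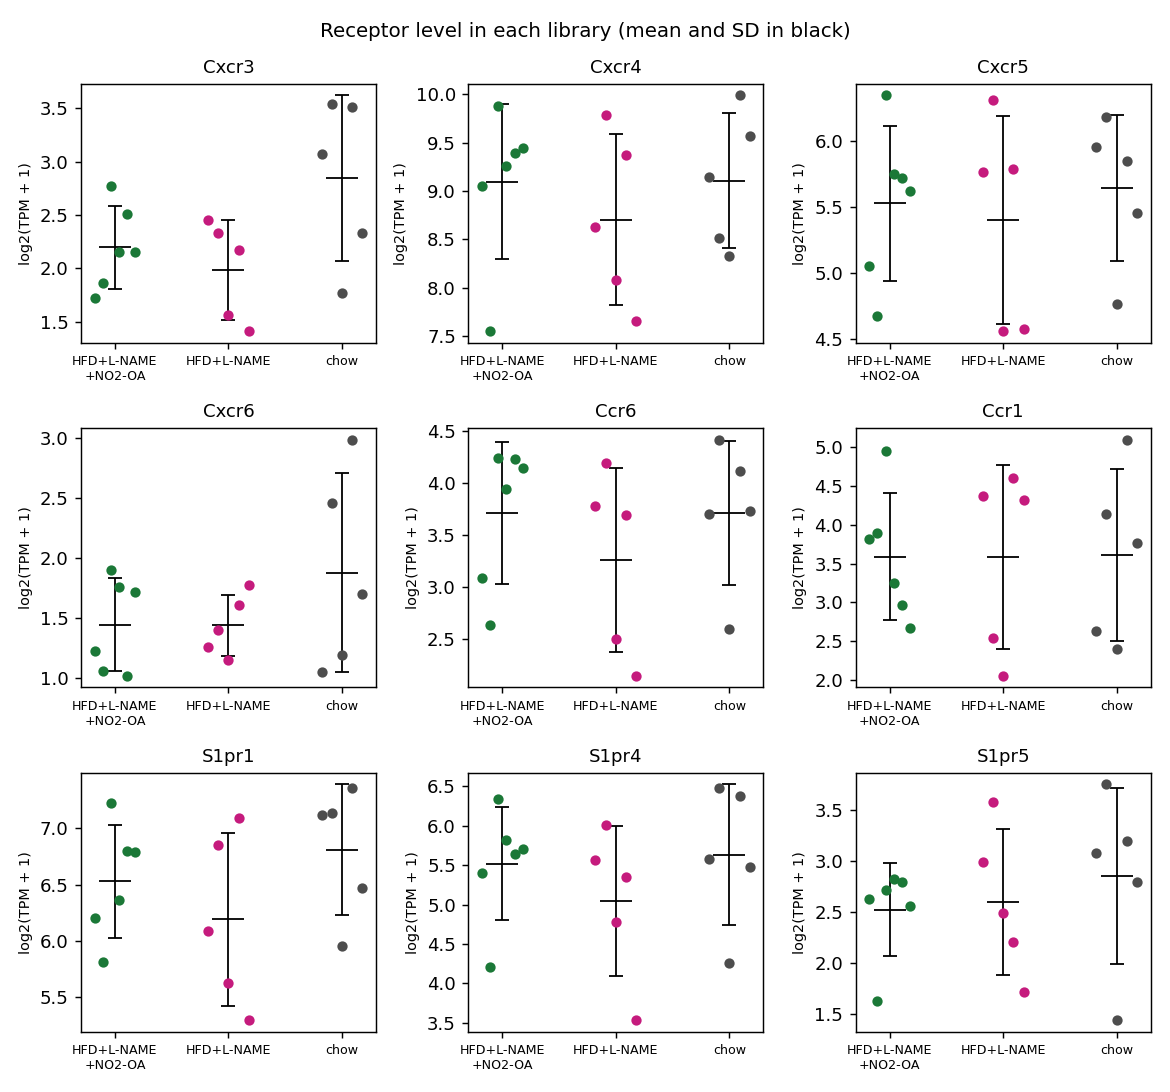
Level of each receptor as log2(TPM + 1) in every library, with groups along the horizontal axis, 1 point per library and the group mean ± SD in black. The groups overlap for all 9 receptors; Cxcr3 in the HFD+L-NAME libraries reaches 4.48 TPM at most, against 10.7 TPM in chow.

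Among the CXC receptors, Cxcr3 showed the widest gap between groups. Its lowest, median and highest levels were 2.30, 3.46 and 5.83 TPM over the 6 HFD+L-NAME+NO2-OA libraries. The 5 HFD+L-NAME libraries held 4.48, 4.04, 1.95, 3.52 and 1.67 TPM, and the 5 chow libraries 7.40, 10.7, 2.41, 10.4 and 4.05 TPM (replicates 1 to 5). All HFD+L-NAME+NO2-OA and all HFD+L-NAME libraries lay below the chow median, yet the ranges overlapped because chow replicates 3 and 5 were low. The depth behind these levels was 22 to 143 reads of Cxcr3 a library.

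Cxcr4 had a lowest, median and highest level of 187, 641 and 941 TPM in HFD+L-NAME+NO2-OA libraries. It had 395, 879, 269, 662 and 199.9 TPM in the HFD+L-NAME libraries, and 566, 364, 320, 1014 and 755 TPM in the chow libraries. The lowest levels of the first 2 groups were in the libraries with little protein-coding TPM, HFD+L-NAME+NO2-OA replicate 2 and HFD+L-NAME replicate 5, as was the lowest of chow, replicate 3.

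Cxcr5 ran from 24.6 TPM through a median of 50.1 TPM to 80.4 TPM in HFD+L-NAME+NO2-OA libraries. The HFD+L-NAME libraries held 53.5, 78.6, 22.6, 54.4 and 22.9 TPM and the chow libraries 61.2, 71.5, 26.3, 56.8 and 43.0 TPM. The 3 groups covered nearly the same range, with group means of 48.4 ± 19.4 TPM in HFD+L-NAME+NO2-OA (n = 6), 46.4 ± 23.8 TPM in HFD+L-NAME (n = 5) and 51.8 ± 17.5 TPM in chow (n = 5).

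Cxcr6, the least abundant, ran from 1.03 TPM through a median of 1.81 TPM to 2.72 TPM in HFD+L-NAME+NO2-OA libraries. It was at 1.39, 1.63, 1.22, 2.05 and 2.42 TPM in HFD+L-NAME libraries and at 1.07, 4.50, 1.29, 6.90 and 2.25 TPM in chow libraries. On TPM, chow replicates 2 and 4 stood above every other library of the series, while the other 3 chow libraries lay inside the range of the HFD+L-NAME+NO2-OA libraries. This depended on the scale. On RPM, where recovered reads are scaled to the library total, HFD+L-NAME replicate 5 was at 7.29. That was above chow replicate 2 at 4.99 and below chow replicate 4 at 7.74. Only 16 to 80 reads a library lay behind these levels.

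Of the CC receptors, Ccr6 ran from 5.18 TPM through a median of 15.5 TPM to 17.9 TPM in HFD+L-NAME+NO2-OA libraries. Its HFD+L-NAME levels were 12.7, 17.3, 4.63, 11.9 and 3.42 TPM, and its chow levels 12.0, 20.3, 5.03, 16.3 and 12.2 TPM. Each group held both high and low libraries, and the ranges overlapped.

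Ccr1, a receptor for Ccl3 and Ccl5, varied most within groups. The HFD+L-NAME+NO2-OA libraries ran from 5.34 TPM through a median of 10.8 TPM to 29.9 TPM. The HFD+L-NAME libraries were at 19.6, 4.82, 3.15, 23.4 and 19.1 TPM and the chow libraries at 5.19, 16.7, 4.27, 33.2 and 12.5 TPM. The highest library exceeded the lowest 10.6-fold over the series, and the group means of 12.9 ± 9.00 TPM in HFD+L-NAME+NO2-OA, 14.0 ± 9.33 TPM in HFD+L-NAME and 14.4 ± 11.7 TPM in chow differed by far less than their SDs.

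Among the S1P receptors, S1pr1 ran from 55.1 TPM through a median of 95.4 TPM to 148 TPM in HFD+L-NAME+NO2-OA libraries. It was at 67.1, 114, 48.5, 136 and 38.3 TPM in HFD+L-NAME libraries and at 138, 140, 61.2, 164 and 87.9 TPM in chow libraries. All 5 HFD+L-NAME libraries lay below the chow median of 138 TPM, and the ranges overlapped.

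S1pr4 ran from 17.4 TPM through a median of 49.99 TPM to 80.0 TPM in HFD+L-NAME+NO2-OA libraries. The HFD+L-NAME libraries held 46.2, 63.3, 26.6, 39.6 and 10.6 TPM and the chow libraries 46.6, 87.9, 18.1, 82.0 and 43.4 TPM. HFD+L-NAME replicate 5 held the lowest level of the series and chow replicate 2 the highest.

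S1pr5 ran from 2.09 TPM through a median of 5.39 TPM to 6.09 TPM in HFD+L-NAME+NO2-OA libraries, of which replicate 2 alone was under 4.91 TPM. It was at 6.94, 10.9, 4.62, 3.63 and 2.29 TPM in HFD+L-NAME libraries and at 7.45, 12.5, 1.72, 8.18 and 5.94 TPM in chow libraries. All 6 HFD+L-NAME+NO2-OA libraries were below the chow median of 7.45 TPM, although chow replicate 3 was the lowest library of all.

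None of the 9 receptors passed the test in any comparison, whether by limma on log2(TPM + 1) or by voom on the recovered reads. Before adjustment, 1 of 27 receptor tests had a p under 0.05 by limma (Cxcr3 in HFD+L-NAME minus chow) and 3 of 27 by voom (Cxcr3 in that comparison and in HFD+L-NAME+NO2-OA minus chow, and S1pr1 in the first). Of all 16365 tested genes, 2.93%, 0.947% and 2.80% had such a p by limma, with the comparisons in the order described below. By voom 857, 296 and 547 of these genes did. In HFD+L-NAME minus chow, which asks what the regimen does to blood cell RNA, 0 of 9 receptors were called at an adjusted p under 0.05, where 0.00611% of all 16365 tested genes were. All 9 log2 differences were below 0 with a median of -0.44, where 82.1% of all tested genes were also below 0 with a median of -0.29. Cxcr3 had the largest difference, -0.86 with a standard error (SE) of 0.36 (adjusted p = 0.816 by limma). It was larger in the downward direction than that of all but 1.96% of tested genes. S1pr1 differed by -0.62 (SE 0.43), S1pr4 by -0.58 (SE 0.49), Ccr6 by -0.45 (SE 0.44), Cxcr6 by -0.44 (SE 0.34) and Cxcr4 by -0.40 (SE 0.52), all on the log2(TPM + 1) scale and with adjusted p = 0.816. S1pr5 at -0.26 (SE 0.41), Cxcr5 at -0.24 (SE 0.43) and Ccr1 at -0.03 (SE 0.55) lay above the median of all genes.

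The size of these differences depended on the run and on the scaling. Within run 1 (3 against 3 libraries) 6 of 9 receptors were below 0 with a median of -0.07 and a median of all genes of 0.13. There Cxcr3 differed by -0.52, Cxcr6 by -0.57 and Ccr1 by -0.68, while S1pr1 at -0.07, S1pr4 at 0.01 and Ccr6 at -0.02 were near 0. Within run 2 (2 against 2 libraries, no test) S1pr4 differed by -1.48, S1pr1 by -1.44, Cxcr3 by -1.37 and Ccr6 by -1.09, and Ccr1 by 0.96. Run 2 holds HFD+L-NAME replicate 5, the library with the fewest reads and the lowest share of protein-coding TPM, and without it S1pr4 differed by -0.21, S1pr1 by -0.40 and Cxcr3 by -0.72. After libraries were rescaled by the median of ratios, which brought the median of all genes to 0.02, Cxcr3 differed by -0.53, S1pr1 by -0.22 and S1pr4 by -0.20, and 6 of 9 receptors were below 0. The Cxcr3 difference was thus below 0 in both runs and on every scale used, without passing the test on any. Relative to T cell markers, as set out below, the Cxcr3 difference was 0.16.

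In HFD+L-NAME+NO2-OA minus HFD+L-NAME, which asks what the nitrated fatty acid adds, 0 of 9 receptors were called, where 0.00611% of tested genes were. The log2 difference was above 0 for 8 of 9 receptors with a median of 0.21, against a median of 0.08 over all tested genes, 35.3% of which were below 0. The largest were S1pr4 at 0.47 (SE 0.47), Ccr6 at 0.45 (SE 0.42), Cxcr4 at 0.39 (SE 0.50) and S1pr1 at 0.34 (SE 0.41), each with adjusted p = 1.00 by limma. Cxcr3 was at 0.21 (SE 0.35) and Cxcr5 at 0.13 (SE 0.41). Ccr1 and Cxcr6 were both at 0.01, and S1pr5 was at -0.07 (SE 0.39). The S1pr4 difference was 0.09 without HFD+L-NAME replicate 5, and the Ccr6 difference was 0.17. Within run 1 (5 against 3 libraries) Ccr6 was at 0.47 and S1pr4 at 0.40, and run 2 holds 1 HFD+L-NAME+NO2-OA library only, which was below the 2 HFD+L-NAME libraries on average by 0.33 for Ccr6 and 0.34 for S1pr4.

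In HFD+L-NAME+NO2-OA minus chow 0 of 9 receptors were called, where 0% of tested genes were. Before adjustment 458 of the 16365 genes had a p under 0.05 by limma, none of them a receptor described here, and voom on the recovered reads also called 0 genes. The log2 difference was below 0 for 8 of 9 receptors with a median of -0.11, against a median of -0.20 over all tested genes, 82.7% of which were below 0. Cxcr3 differed by -0.65 (SE 0.35, adjusted p = 0.977 by limma), Cxcr6 by -0.43 (SE 0.32) and S1pr5 by -0.33 (SE 0.39). Cxcr4 (-0.01), Ccr1 (-0.02) and Ccr6 (0.00) were close to 0. This comparison shares its libraries with the other 2 comparisons, so their values are not independent. Within run 1 the Cxcr3 difference was -0.28 and 6 of 9 receptors were above 0, and after rescaling Cxcr3 was at -0.43 and 5 of 9 were above 0.

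**Figure D2:**
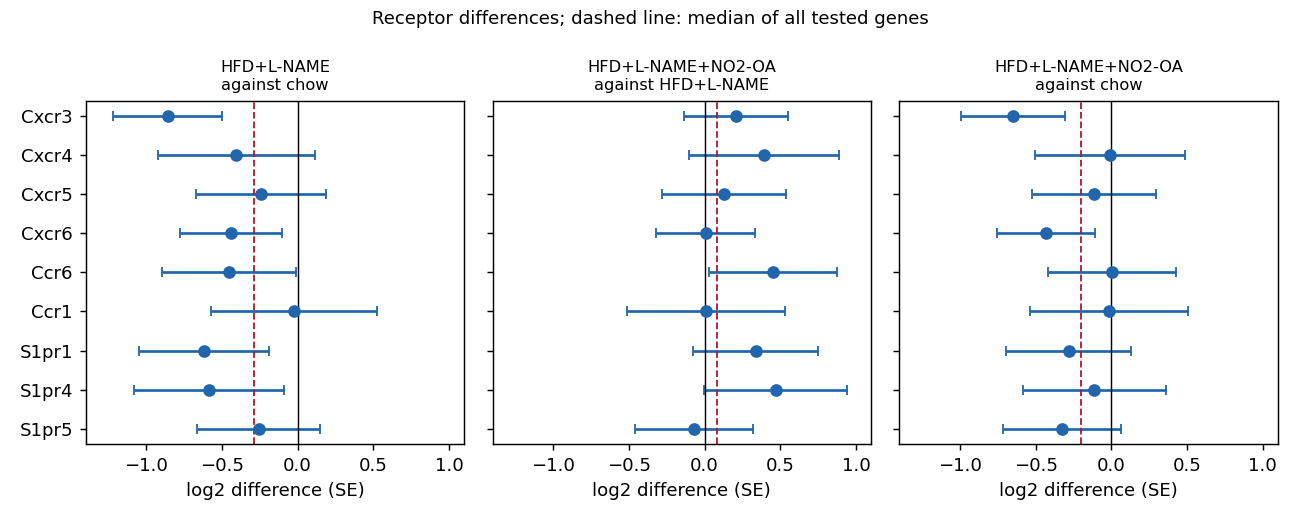
Log2 difference of each receptor on the log2(TPM + 1) scale with its standard error, in the 3 comparisons; the solid line is 0 and the dashed line the median of all tested genes. In HFD+L-NAME minus chow all 9 points lie below 0 and the median of all genes lies at -0.29; Cxcr3 at -0.86 is the farthest.

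No marker of the cells that can carry these receptors passed the test in any comparison, and their levels are given beside those of the receptors. In bulk samples fewer cells of a type and less RNA per cell cannot be told apart. The summed level of 7 T cell markers (Cd3e, Trac and others) ranged over 109 to 211 TPM in HFD+L-NAME+NO2-OA libraries, 50.6 to 225 TPM in HFD+L-NAME libraries and 124 to 335 TPM in chow libraries. The sum of 6 NK markers (Ncr1, Klrb1c and others) ranged over 22.7 to 49.0, 10.6 to 76.7 and 24.7 to 99.8 TPM in the same order of groups. The sum of 7 B cell markers (Cd79a, Ms4a1 and others) ranged over 338 to 1602, 418 to 1498 and 373 to 2159 TPM. In HFD+L-NAME minus chow all 7 T markers, all 6 NK markers and all 7 B markers were below 0, with medians of -0.99, -0.99 and -0.39, where 82.1% of all tested genes were below 0 with a median of -0.29, so the B markers lay near that background. An unadjusted p under 0.05 by limma was found for 6 of the 7 T markers, 5 of the 6 NK markers and 0 of the 7 B markers, against 2.93% of all tested genes. In run 2 the T sums were 88.1 and 50.6 TPM in HFD+L-NAME libraries and 335 and 312 TPM in chow libraries. In run 1 they overlapped, at 170, 92.4 and 225 TPM against 182, 308 and 124 TPM. The NK sums were 18.1 and 10.6 TPM against 62.7 and 95.9 TPM in run 2. In run 1 they also overlapped, at 76.7, 21.97 and 28.4 TPM against 24.7, 99.8 and 53.4 TPM. In the same comparison 6 of 7 monocyte markers and 5 of 6 neutrophil markers were above 0, with medians of 0.14 and 0.46. Their part in the receptor differences was not tested.

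Each receptor was therefore also set against 1 marker list assigned to it from general knowledge, as the receptor's log2(TPM + 1) minus the mean over the list, with Cxcr4 left out because most leukocytes carry it. None of the 24 differences between groups passed an exact two-sided permutation test after adjustment. S1pr5 relative to NK markers averaged 0.45 ± 0.48 in HFD+L-NAME libraries and -0.26 ± 0.35 in chow libraries (SD, n = 5 each), a difference of 0.70 (exact p = 0.0397, adjusted p = 0.519), with 5 of 5 HFD+L-NAME libraries above the chow median. Ccr6 relative to B markers averaged -2.92 ± 0.26 in HFD+L-NAME+NO2-OA libraries (n = 6) and -3.28 ± 0.21 in HFD+L-NAME libraries (n = 5), a difference of 0.37 (exact p = 0.0433, adjusted p = 0.519) with 5 of 6 libraries above the HFD+L-NAME median. S1pr1 relative to T markers averaged 2.42 ± 0.21 in HFD+L-NAME libraries and 2.03 ± 0.35 in chow libraries, a difference of 0.40 (exact p = 0.0714, adjusted p = 0.571) with 5 of 5 above the chow median. Within run 1 these 3 differences were 0.67 for S1pr5, 0.22 for Ccr6 and 0.23 for S1pr1. Over all libraries the S1pr1 and S1pr5 levels themselves differed from chow by -0.62 and -0.26, the opposite sign, while S1pr5 itself was at 0.28 within run 1 and at 0.10 after rescaling, the same sign. Cxcr3 relative to T markers differed by 0.16 in HFD+L-NAME minus chow (exact p = 0.635). It differed by -0.13 in HFD+L-NAME+NO2-OA minus HFD+L-NAME (exact p = 0.608) and by 0.03 in HFD+L-NAME+NO2-OA minus chow (exact p = 0.920).

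**Figure D3:**
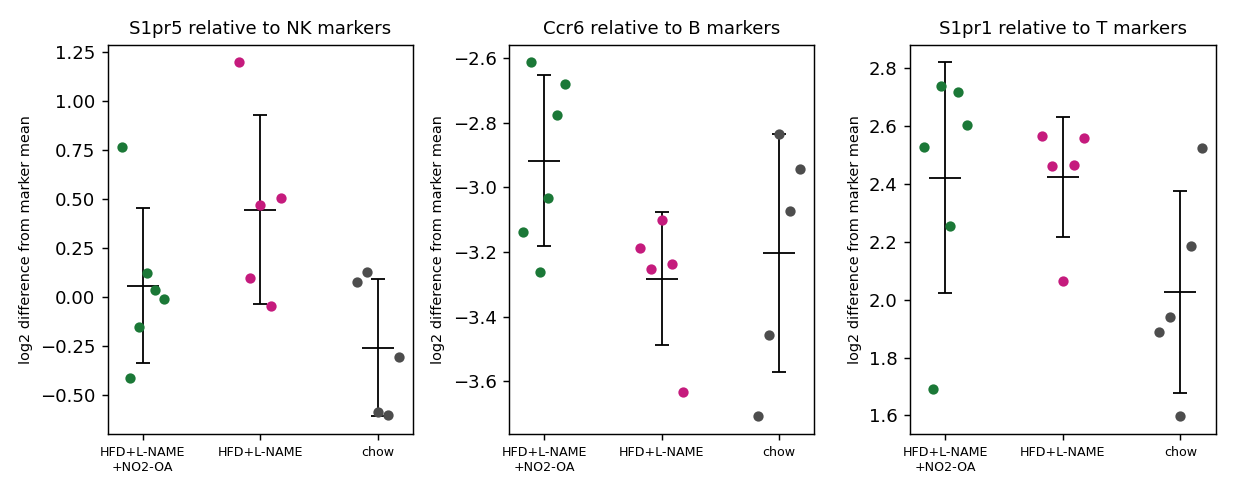
Receptor level minus the mean of its marker list (log2 units) in each library for the 3 relations of smallest exact p, with groups along the horizontal axis and mean ± SD in black. S1pr5 relative to NK markers averages 0.45 in HFD+L-NAME libraries and -0.26 in chow, and the groups overlap in all 3 panels.

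Over the 16 libraries, receptor levels moved with marker levels, and this depended strongly on the scale. On TPM, 23 of 36 correlations between a receptor and the mean T, B, NK or monocyte marker level passed after adjustment, all of them positive, with a median r of 0.65 over the 36. On RPM, the recovered reads scaled to each library's total, 14 passed with a median r of 0.37. Once libraries had been rescaled by the median of ratios, 2 passed with a median r of 0.10. Within the 11 libraries of run 1, 24 passed on TPM. Run 2, with 5 libraries, is too small for a correlation. On TPM the receptors also correlated with genes in general. Over 7149 protein-coding genes with a mean of at least 5 TPM, the median r ran from 0.66 for S1pr5 to 0.85 for S1pr1. It was lower for Cxcr6 at 0.33 and for Ccr1 at 0.17. The permutation tests compare r with 0 and not with this background.

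Cxcr5 followed the B markers most closely, with r = 0.97 and rho = 0.94 (n = 16, permutation p = 1e-05 for each, the smallest that 100000 permutations can give, adjusted p = 0.00018 for r). It gave r = 0.97 without the 2 libraries farthest from the median, 0.98 in run 1, 0.87 on RPM, and 0.72 after rescaling (adjusted p = 0.0398). Ccr6 followed them with r = 0.92 and rho = 0.85, which was 0.79 on RPM and 0.62 after rescaling, where it no longer passed (adjusted p = 0.0783). S1pr4 and S1pr5 also had their highest r with B markers, at 0.89 and 0.86, which became 0.56 and 0.61 after rescaling and passed in neither case. S1pr1 had r = 0.85 with B markers on TPM and -0.01 after rescaling. With T markers it had r = 0.84 (rho = 0.82, permutation test, adjusted p = 0.00018 for r), 0.76 on RPM (adjusted p = 0.00378), 0.79 within run 1 and 0.45 after rescaling (adjusted p = 0.287). The median r of S1pr1 with genes in general was 0.85 on TPM, so its r with B and T markers lay near that background. Cxcr4 had r = 0.73 with B markers, against 0.08 after rescaling and 0.43 without the 3 libraries of low protein-coding TPM. Cxcr3 was highest with NK markers (r = 0.83, rho = 0.79, adjusted p = 0.00036), which was 0.69 on RPM (adjusted p = 0.0131) and 0.54 after rescaling (adjusted p = 0.162). Cxcr6 had r = 0.55 with NK markers (rho = 0.35, adjusted p = 0.0399 for r and 0.225 for rho), and 0.20 after rescaling.

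Over the 16 libraries Ccr1 followed myeloid markers and not lymphocyte markers. Its r was 0.08 with T, 0.06 with NK and 0.26 with B markers, and 0.64 with monocyte markers (rho = 0.59, adjusted p = 0.0129). Within run 1 its r was higher with the lymphocyte markers too, at 0.60 with T (adjusted p = 0.0678), 0.54 with B and 0.36 with NK markers, and with T markers it was 0.43 without the 2 farthest libraries. The monocyte relation was 0.71 after rescaling (adjusted p = 0.0398), 0.75 on RPM and 0.75 within run 1, but 0.42 without the 2 libraries farthest from the median, so on TPM it rests partly on those. With 6 neutrophil markers (S100a8, Csf3r and others), a list added after the first correlations were seen and tested for all 9 receptors, Ccr1 had r = 0.80 and rho = 0.86 (adjusted p = 0.00099), 0.83 after rescaling and 0.83 without the 2 farthest libraries. Cxcr6 was the receptor with the next highest r with neutrophil markers, at 0.61 on TPM (adjusted p = 0.0611) and 0.66 after rescaling (adjusted p = 0.0281), but 0.36 and 0.42 without the 2 farthest libraries. Within run 1 most receptors followed the neutrophil markers on TPM: r was 0.87 for Ccr1, 0.86 for Cxcr3, 0.85 for Cxcr6, 0.73 for S1pr4, 0.72 for Cxcr4 and 0.72 for S1pr1, so the relation was not particular to Ccr1 and Cxcr6 there. Since Ccr1 did not follow lymphocyte markers over the 16 libraries, the 9 genes are called chemokine and S1P receptors and not receptors of lymphocytes, although the separation was smaller within run 1.

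**Figure D4:**
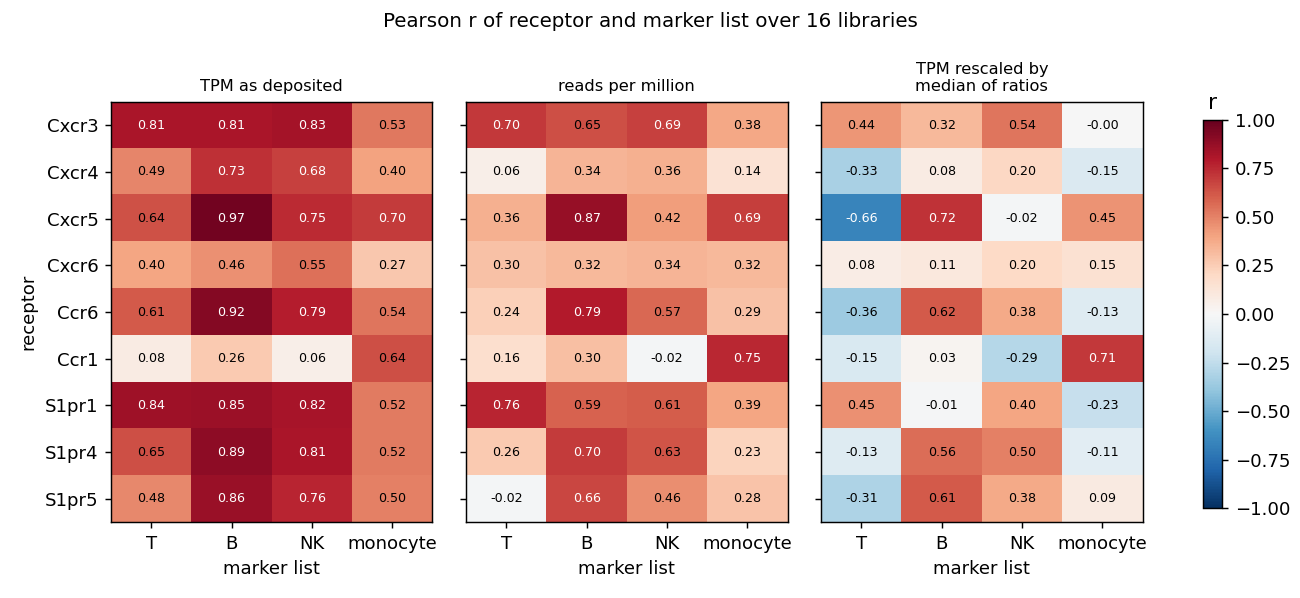
Pearson r over the 16 libraries between each receptor (rows) and the mean level of 4 marker lists (columns) on 3 scales. On TPM most cells are above 0.4, apart from Ccr1 with T, B and NK markers and Cxcr6 with T and monocyte markers. After rescaling Cxcr5 with B markers (0.72) and Ccr1 with monocyte markers (0.71) are the relations that passed.

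**Figure D5:**
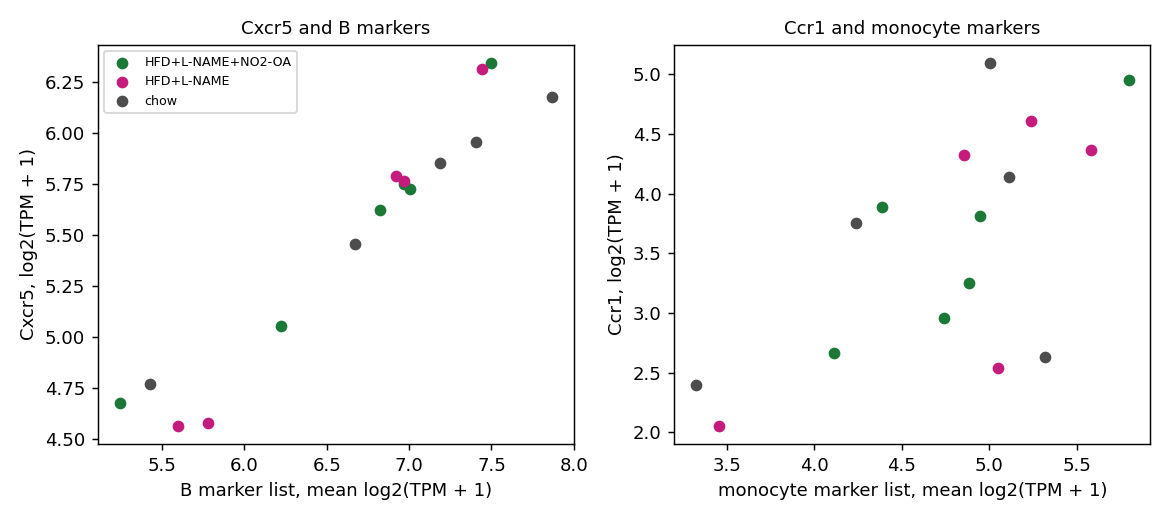
Level of Cxcr5 against the mean B marker level (left) and of Ccr1 against the mean monocyte marker level (right), both as log2(TPM + 1), 1 point per library coloured by group. The 3 groups lie along the same line for Cxcr5 (r = 0.97) and scatter more widely for Ccr1 (r = 0.64).

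The receptors also moved with one another, as they did with genes in general on TPM. For genes in general the median r was 0.66 to 0.85, apart from Cxcr6 and Ccr1, as given above. Beside this background, 22 of 36 receptor pairs passed on TPM, all positively, with a median r of 0.70. On RPM 6 passed, and after rescaling 0 passed, where the highest of the pairs named here was Ccr6 with S1pr4. The closest pairs on TPM were Cxcr5 with Ccr6 (r = 0.94, rho = 0.79), Ccr6 with S1pr4 (r = 0.93, rho = 0.92) and Cxcr5 with S1pr4 (r = 0.89, rho = 0.82), each with permutation p = 1e-05 for r and adjusted p = 7.2e-05. After rescaling their r was 0.57, 0.75 and 0.42 (adjusted p = 0.207, 0.0544 and 0.499). The loosest pairs all held Ccr1: with Ccr6 r = 0.19, with Cxcr4 r = 0.15 and with S1pr5 r = 0.06, none of which passed. Over the 16 libraries the receptor closest to Ccr1, singled out after the values were seen, was Cxcr6, with r = 0.60 and rho = 0.60 (permutation test, adjusted p = 0.0197 for r), and 0.62 after rescaling (adjusted p = 0.123). Within run 1 Ccr1 had r = 0.73 with S1pr1 (adjusted p = 0.0251), 0.70 with Cxcr6, 0.69 with Cxcr3 and 0.66 with Cxcr4 (adjusted p = 0.0386), so Cxcr6 was not the closest there.

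Of 7149 protein-coding genes with a mean of at least 5 TPM, those most like each receptor over the 16 libraries by Pearson r are given as a description. For Cxcr5 they were Map3k1 (a stress kinase), Plcg2 (a phospholipase of B cell receptor signalling) and Pacc1 (a chloride channel), all at r = 0.99, where the median gene had 0.83. For Ccr6 they were Ciita (the activator of MHC class II genes) at 0.98, Rhoh at 0.97 and Trim35 at 0.97, where the median gene had 0.78. For Cxcr3 they were Rinl at 0.95, Cd27 (a costimulatory receptor of T and NK cells) at 0.93 and Arhgap9 at 0.93. For Cxcr4 they were Mrps7 (a mitochondrial ribosomal protein), Uspl1 and Ube2g2 (a ubiquitin-conjugating enzyme), all at 0.94. S1pr1 was closest to Atp8b2 (a lipid flippase subunit), Prpf6 (a splicing factor) and Slc4a1ap at 0.98, where the median gene already had 0.85. S1pr4 was closest to Idnk, Tmpo (a nuclear lamina protein) and Akap8l at 0.99, 0.98 and 0.98, and S1pr5 to Pot1b (a telomere protein), Tspan32 (a tetraspanin) and Eif4ebp3 at 0.95, 0.94 and 0.94. Ccr1 was closest to Cd33 (a sialic acid receptor of myeloid cells) at 0.94, Il1r2 (the interleukin 1 decoy receptor) at 0.92 and S100a11 at 0.92, where the median gene had 0.17. Cxcr6 was closest to Pglyrp1 (a neutrophil granule protein) at 0.72, Stfa2l1 at 0.72 and Ifitm1 at 0.70. After rescaling the 3 genes for Ccr1 kept r of 0.94, 0.93 and 0.94, and those for S1pr4 kept 0.95, 0.93 and 0.95. Those for Ccr6 were at 0.91, 0.83 and 0.86, and those for Cxcr5 at 0.87, 0.86 and 0.79.

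Of 18 other chemokine receptors, 11 passed the filter on low values and 0 of 11 were called in any comparison by limma. At an unadjusted p under 0.05 were 0, 2 and 0 of them in the 3 comparisons, against 2.93%, 0.947% and 2.80% of all tested genes. In HFD+L-NAME minus chow 5 of the 11 were below 0, with a median of 0.01. The most abundant was Ccr7, which brings T cells and dendritic cells into lymph nodes, at 144 ± 46.9 TPM in HFD+L-NAME+NO2-OA, 141 ± 93.1 TPM in HFD+L-NAME and 210 ± 95.6 TPM in chow. Ccr2, the receptor that brings inflammatory monocytes out of the marrow, was at 20.3 ± 13.0, 11.8 ± 6.57 and 12.0 ± 6.99 TPM in the same order. Of 15 other genes of S1P signalling and metabolism, 11 were tested and 0 called, with none at an unadjusted p under 0.05 by limma. Klf2, the transcription factor that drives S1pr1 in T cells, averaged 285 ± 100.0 TPM in HFD+L-NAME+NO2-OA, 417 ± 401 TPM in HFD+L-NAME and 535 ± 321 TPM in chow. Mfsd2b, the S1P exporter of red cells and platelets, averaged 121 ± 103, 160 ± 151 and 95.5 ± 79.8 TPM. Among the other S1P receptors S1pr2 and S1pr3 each averaged under 1 TPM.

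Of 13 ligands, 8 were tested and 0 were called by limma. In HFD+L-NAME minus chow 1 of them (Ccl5) was at an unadjusted p under 0.05, as were 2.93% of all tested genes. No ligand was in the other comparisons. Mif, a cytokine that also binds Cxcr4, averaged 103 ± 70.7 TPM in HFD+L-NAME+NO2-OA, 145 ± 154 TPM in HFD+L-NAME and 88.1 ± 30.7 TPM in chow. Ccl5, a chemokine of T and NK cells that binds Ccr1, averaged 56.9 ± 13.4, 49.0 ± 21.2 and 95.9 ± 33.2 TPM, with a difference of -0.99 in HFD+L-NAME minus chow (SE 0.40, adjusted p = 0.816 by limma). Ccl20, the ligand of Ccr6, was listed at 0 in all 16 libraries. Cxcl13, the ligand of Cxcr5, was listed at 0 in 12 libraries and at 25.4 and 72.8 TPM in HFD+L-NAME replicates 1 and 5 and 9.28 and 30.4 TPM in chow replicates 1 and 2, the 4 libraries that carried peritoneal macrophage genes. These last 2 ligands were singled out after their values were seen. Of 23 genes of receptor signalling and desensitisation all 23 were tested and 0 called, with none at an unadjusted p under 0.05 by limma. The most abundant were Rgs18, a regulator of G protein signalling in platelets, at 200.3 ± 164, 245 ± 208 and 145 ± 98.9 TPM, and Rgs10 at 148 ± 101, 208 ± 186 and 148 ± 106 TPM (HFD+L-NAME+NO2-OA, HFD+L-NAME, chow).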

How the data were processed

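Total RNA of frozen and thawed murine PBMCs, isolated on Ficoll with red cell lysis, was made into random-primed, rRNA-depleted libraries, per the labels' protocols. Reads passed through bcl2fastq, Trim Galore, HISAT2 and featureCounts, per the submitters' processing notes, which name mm39 and hg38 without versions. The deposited values are TPM per gene, and each library summed to 1000000. The annotation and the use of strand are not given in the sources used here.

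From these, a linear model of log2(TPM + 1) was made with limma 3.58.1 (R 4.3.3), with a variance trend, 1 coefficient per group and two-sided tests, over the 16 libraries together. The filter was at least 1 TPM in at least 5 libraries (16365 genes), with Benjamini-Hochberg adjustment over all of them and a threshold of 0.05. Whole reads recovered from TPM steps (tolerance 0.001 of a read) came out whole for 100% of 32629 genes above 0, and served for depth, RPM and voom. The lengths they imply lay within 1.5-fold of annotated ones for 89.1% of genes. Correlations used 100000 permutations (scipy 1.17.1), adjusted over 36 relations or 36 pairs. Named other genes were, for each list, the called genes or else the 2 of highest mean TPM, and for each receptor the 3 of highest r.

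One gene of the marker lists is not reported here by itself. Same-numbered libraries were not paired: of 15 pairs 3 correlated above 0.1. Members and lists were chosen with earlier results of these data known. Pseudocount, filter, scaling, model, run and left-out libraries were varied. Gene types come from GENCODE M21 and promoters from RefSeq, both on GRCm38, and no position on mm39 is given.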

Additional observations from a re-analysis of the deposited data

Results flagged for a closer look

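Among 27 sets of libraries examined (9 receptors in 3 groups), 2 held a library that stood far from the others by Dixon's ratio of the gap to the range, and chance alone gives about 1 in 20. Ccr1 reached 29.9 TPM in HFD+L-NAME+NO2-OA replicate 3, the highest of that group. S1pr5 was at 2.09 TPM in HFD+L-NAME+NO2-OA replicate 2, the lowest of that group, in a library with 15.9% of its TPM in protein-coding genes. These ratios were taken on TPM, and on RPM the same libraries stood out less. There Ccr1 was at 52.7 in replicate 3, below replicate 2 at 55.2 in the same group. S1pr5 was at 7.30 RPM in replicate 2, close to replicate 5 at 8.05.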

How the results depend on the processing

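No receptor was called under any setting, with a smallest adjusted p of 0.477 over all of them (limma, HFD+L-NAME replicate 4 left out), and no level relative to markers passed. With the replicate number as a block, the genes called in the 3 comparisons stayed at 1, 1 and 0, and differences that changed sign were Cxcr6 in HFD+L-NAME+NO2-OA minus HFD+L-NAME (-0.048) and Ccr6 (-0.085) and Ccr1 (0.17) in HFD+L-NAME+NO2-OA minus chow. Numbers did not pair the libraries (r from -0.51 to 0.51).

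Genes called in HFD+L-NAME minus chow were 1, but 0 without the filter, after either rescaling, by voom and without the 3 low protein-coding libraries, 9 in a fit of the 2 groups alone, 2 in run 1 and 2 without the 4 macrophage gene libraries. In HFD+L-NAME+NO2-OA minus HFD+L-NAME they were 1, but 2 with a pseudocount of 0.1, 2 with run as a term, 3 in run 1, 2 without the 4 macrophage gene libraries and 0 after either rescaling, by voom and without the low protein-coding libraries. In HFD+L-NAME+NO2-OA minus chow run 1 gave 1. Leaving out 1 library gave 0 to 2 (0 without HFD+L-NAME replicate 2, 3, 4 or 5, 2 without HFD+L-NAME replicate 1 or chow replicate 1 or 5), 0 to 4 (4 without HFD+L-NAME+NO2-OA replicate 2, 2 when HFD+L-NAME replicate 1 was left out and 0 without HFD+L-NAME replicate 3, 4 or 5) and 0 to 1 (1 without HFD+L-NAME+NO2-OA replicate 2) in the 3 comparisons.

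Receptor differences that changed sign, in HFD+L-NAME minus chow: median of ratios rescaling, Ccr1 0.34, Cxcr5 0.15 and S1pr5 0.10; protein-coding rescaling, Ccr1 0.038; run 1 alone and without the macrophage gene libraries alike, Cxcr5 0.20, S1pr4 0.0100 and S1pr5 0.28. In HFD+L-NAME+NO2-OA minus HFD+L-NAME: median of ratios, Ccr1 -0.14, Cxcr5 -0.031 and Cxcr6 -0.14; protein-coding rescaling, Ccr1 -0.13, Cxcr5 -0.0077 and Cxcr6 -0.12; pseudocount 0.1, Cxcr6 -0.0092; run as a term, Cxcr6 -0.028; without the macrophage gene libraries, Cxcr5 -0.027. In HFD+L-NAME+NO2-OA minus chow: median of ratios, Ccr1 0.21, Cxcr4 0.23, Cxcr5 0.12 and S1pr4 0.12; protein-coding rescaling, Ccr6 -0.10; run as a term, Ccr1 0.085 and Ccr6 -0.069; voom, Ccr1 0.075 and Cxcr4 0.092; without the low protein-coding libraries, Ccr6 -0.061 and Cxcr4 0.10; run 1 alone, Cxcr4 0.11, Cxcr5 0.34, S1pr1 0.077, S1pr4 0.41 and S1pr5 0.23; without the macrophage gene libraries, Cxcr5 0.17, S1pr4 0.15 and S1pr5 0.048. After median of ratios rescaling 14 of 36 receptor and marker correlations and 8 of 36 receptor pairs that were above 0 on TPM were below 0. The lowest was Cxcr5 with T markers (0.64 on TPM, -0.66 rescaled), followed by Ccr6 (-0.36), Cxcr4 (-0.33) and S1pr5 (-0.31) with T markers, and among pairs Cxcr3 with Cxcr4 (-0.26), S1pr1 with S1pr5 (-0.18) and Cxcr5 with S1pr1 (-0.17). It also turned Ccr1 with S1pr5 to -0.13, Ccr1 with Ccr6 to -0.13, Ccr1 with Cxcr4 to -0.019 and S1pr1 with B markers to -0.011. The cause was not tested.

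Leaving out 1 library also turned small differences: in HFD+L-NAME minus chow, Ccr1 (-0.33 to 0.36); in HFD+L-NAME+NO2-OA minus HFD+L-NAME, Ccr1 (-0.37 to 0.27), Cxcr5 (-0.083 to 0.35), Cxcr6 (-0.083 to 0.092) and S1pr5 (-0.29 to 0.17); in HFD+L-NAME+NO2-OA minus chow, Ccr1 (-0.32 to 0.36), Ccr6 (-0.28 to 0.22), Cxcr4 (-0.21 to 0.30), Cxcr5 (-0.33 to 0.056) and S1pr4 (-0.46 to 0.15). The r of Ccr1 with S1pr5 ranged over -0.12 to 0.20. Depth limits Cxcr6 most, at 16 to 80 reads a library.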

Other observations

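A few receptors of the same families, singled out after their values were seen, were high in the 2 HFD+L-NAME and 2 chow libraries that carried peritoneal macrophage genes. Cmklr1, the receptor for chemerin, ranged over 7.15 to 10.1 TPM in these 4 libraries and 0.491 to 3.37 TPM in the other 12. Ackr3, a scavenging receptor for Cxcl12, ranged over 1.11 to 6.67 TPM in these 4 and up to 1.03 TPM in the other 12. Ccrl2, an atypical receptor that also binds chemerin, overlapped between the same libraries, at 8.38 to 50.9 TPM and 2.14 to 28.3 TPM. Its log2 difference in HFD+L-NAME+NO2-OA minus HFD+L-NAME was -1.52 (adjusted p = 1.00 by limma), and the part of these libraries in it was not tested.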
